A study of Mus musculus with 6 samples.

Results

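MyoD, the myogenic transcription factor, binds DNA with a dimerization partner, and 10 genes that encode its partners and inhibitors of the basic helix-loop-helix (bHLH) class were examined here. They were taken by gene symbol from a table of 46078 mouse genes, of which 30252 had a count in any library. The members were 3 E proteins (*Tcf3*, *Tcf4* and *Tcf12*), 3 Id proteins (*Id1*, *Id2* and *Id3*), and *Twist1*, *Twist2*, *Msc* and *Bhlhe40*. RNA was sequenced from *Hnrnpa2b1* knockout (KO) and wild type (WT) C2C12 cells, 3 libraries of each genotype, after 48 hr of differentiation. C2C12 is an immortalized line of mouse myoblasts whose cells leave the cell cycle and fuse into myotubes when serum is withdrawn, and all 6 cultures were differentiated by serum withdrawal with ITS supplement. KO cells were made with CRISPR-Cas9 and selected with puromycin, and 3 clones of each genotype were isolated according to the methods. A figure legend of the study describes the control cells as treated with a scrambled guide. The labels do not tie libraries to clones, so it is not known whether the spread between libraries of a genotype includes clone differences. The p-values weigh the genotype difference against that spread. Where libraries of a genotype share a clone, clone and genotype cannot be told apart. Each library carries its genotype and its replicate number (KO1, WT1), and values per library are listed in the order 1, 2, 3.

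E proteins are the general partners of MyoD: the heterodimer binds the E-box, a short DNA motif in the regulatory regions of muscle genes. Id proteins have the helix-loop-helix but not the basic region that contacts DNA, so they pair with E proteins and hold them away from MyoD. Twist proteins and musculin (*Msc*, also called MyoR) compete for E proteins or for E-boxes, and *Bhlhe40* encodes a transcriptional repressor that binds E-boxes. Id genes are known as direct targets of bone morphogenetic protein (BMP) signalling, and their RNA is known to fall as myoblasts differentiate.

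Each library held 33605258 to 40558740 reads counted on genes. The targeted gene, *Hnrnpa2b1*, had 159, 195 and 249 CPM (counts relative to a TMM-scaled library total) in KO and 225, 229 and 252 in WT. Its log2 fold change was −0.23 (adjusted p = 0.381, edgeR's quasi-likelihood test), so the RNA level did not separate the genotypes, and loss of the protein is not measured here. According to the methods of the study, the protein was examined in the KO clones by immunofluorescence and Western blotting. All 7 markers of myoblasts and myotubes were detected in these cells. Among markers of other cell types, the summed CPM of 5 adipocyte and fibro-adipogenic genes was 54.0 to 105 in KO and 21.9 to 27.7 in WT, with *Adipoq* and *Fabp4* at no more than 3 counts in every library. Of these 5, *Ly6a* and *Pdgfra* were higher in KO, and *Pparg* was not called (−0.17 on the log2 scale). The separation of the sums rested on *Ly6a*, without which they were 18.9 to 21.2 in KO and 13.6 to 19.7 in WT. The summed CPM of 6 bone and cartilage markers was 11.4 to 18.2 in KO and 11.3 to 12.1 in WT, with *Ibsp* and *Col2a1* at no more than 3 counts. For 4 endothelial markers the sums were 0.196 to 0.733 in KO and 1.19 to 2.05 in WT, and for 3 leukocyte markers 2.22 to 3.47 and 1.92 to 2.40, with *Pecam1* and *Adgre1* at no more than 3 counts. The largest part of the endothelial sums in WT was *Kdr*, called lower in KO (0.056, 0.366 and 0.244 CPM, against 0.723, 0.945 and 1.37). *Tek* was not called (−0.28 on the log2 scale), and *Pecam1* and *Cdh5* were too low to be tested. The part of such cells in the values of the members was not tested. In bulk RNA, fewer cells of a type and less RNA per cell cannot be told apart. KO1 differed from KO2 and KO3 in several members, and results without it are given where they change a call.

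*Id1* was the single member called at the threshold used here, and it was higher in KO. Of the 10 members, 9 passed the filter on low counts; 1 was called higher and 0 lower at an adjusted p under 0.05 (edgeR's quasi-likelihood test with Benjamini-Hochberg adjustment over all genes). Among all 14828 genes tested, 22.7% were called, 12.1% as higher and 10.6% as lower in KO. At an unadjusted p under 0.05 in edgeR, 2 members were below the threshold, *Id1* (0.000597) and *Id2* (0.0334), where 39% of all genes tested were below it. The KO and WT libraries did not overlap in CPM for 1 member, *Id1*, whereas they did not overlap for 44.3% of all genes tested. The log2 fold change was above 0 in 6 of the 9 members and below 0 in 3, with a median of 0.78 against 0.03 over all genes tested. DESeq2 also called 1 member, *Id1*.

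**Figure D1:**
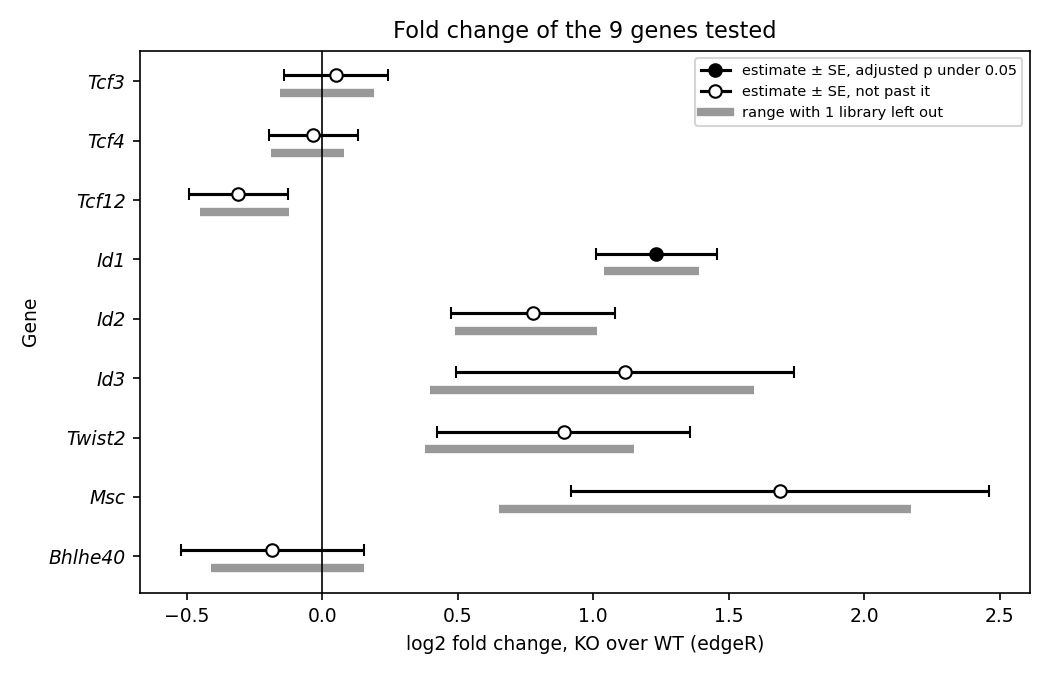
Log2 fold change of KO over WT (x axis, edgeR) for the 9 members tested. Circles with bars are estimates ± standard error, filled where the adjusted p is under 0.05, and grey bars span the estimates with 1 library left out. *Id1* is the filled circle at 1.23, and the range for *Msc* reaches from 0.65 to 2.17.

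Levels can be compared between genes in TPM, a relative abundance corrected for transcript length. In WT the order of mean TPM was *Tcf12*, *Bhlhe40*, *Tcf4*, *Tcf3*, *Id1*, *Id2*, *Id3*, *Twist2*, *Msc* and *Twist1*. *Tcf12* stood at 63.3 ± 12.5 TPM (SD, n = 3), *Tcf4* at 24.4 ± 2.93 (SD, n = 3) and *Id1* at 4.92 ± 1.32 (SD, n = 3). Neighbours in this order did not overlap in WT, except *Id1* with *Id2* and *Twist2* with *Msc*. In KO the first 7 places were the same, with *Tcf12* at 48.9 ± 11.1 TPM (SD, n = 3) and *Id1* at 11.7 ± 3.40 (SD, n = 3). There, neighbouring genes overlapped in range at every step except between *Id1* and *Id2* and between *Twist2* and *Twist1*. The means of *Msc* (0.840 ± 0.868 TPM) and *Twist2* (0.671 ± 0.320 TPM; SD, n = 3) changed places in KO, within their spread.

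**Figure D2:**
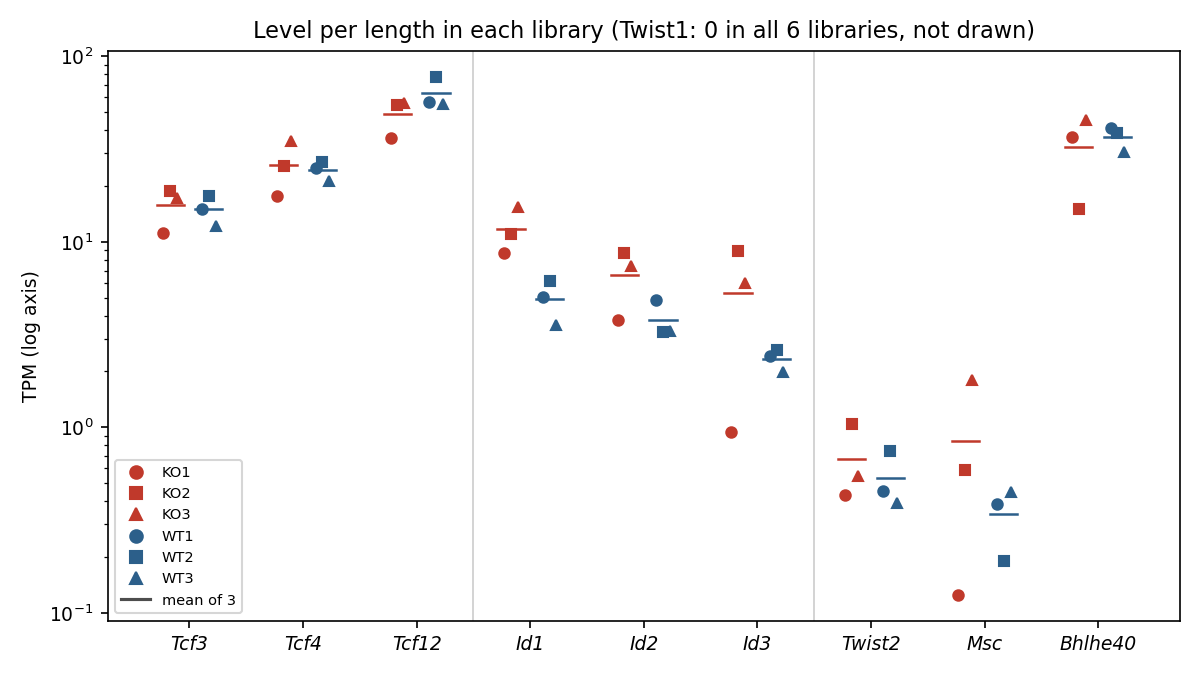
TPM on a log axis for 9 members, with KO libraries in red, WT libraries in blue, marker shapes for libraries 1 to 3 and horizontal lines for the mean of 3. *Id1* is the one gene whose red and blue points do not overlap, and *Twist1* is not drawn because it was listed at 0 in all 6 libraries.

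The E protein genes had higher mean TPM than the other members apart from *Bhlhe40*, which stood second after *Tcf12*. No E protein gene passed the threshold. *Tcf12* (ENSMUSG00000032228), which encodes HEB, lies on chromosome 9 from 71842688 to 72111871 on GRCm38. It had 242, 274 and 271 CPM in KO and 296, 408 and 272 in WT. WT2 was the highest library, and KO3 and WT3 were close to each other. Its change, −0.31 on the log2 scale (SE 0.18), did not pass the test (adjusted p = 0.242, edgeR). With each library left out in turn it stayed between −0.45 and −0.12.

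*Tcf3* (ENSMUSG00000020167), the gene of E12 and E47, lies on chromosome 10 from 80409514 to 80433647. Its CPM were 50.6, 81.5 and 60.3 in KO and 61.4, 70.2 and 54.3 in WT. KO1 was the lowest and KO2 the highest of all 6 libraries, so the KO range contained the WT range. On the log2 scale this gave 0.05 (SE 0.19, adjusted p = 0.871, edgeR). The value changed sign without KO2 (−0.16) and without WT3 (−0.067), and in TPM without KO2, KO3 or WT3. *Tcf4* (ENSMUSG00000053477), the gene of E2-2 on chromosome 18, had 157, 183 and 230 CPM in KO and 187, 207 and 189 in WT. Here too the KO libraries lay on either side of the WT libraries. The change of KO over WT was −0.03 on the log2 scale (SE 0.16, adjusted p = 0.896, edgeR). This change was 0.081 without KO1, 0.0027 without WT2 and 0.0036 with upper-quartile scaling.

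*Tcf12* was the largest part of the E protein pool in every library. It gave 51.8% to 55.7% of the summed E protein TPM in KO and 58.7% to 63.5% in WT, and *Tcf3* gave 15.9% to 18.9% in KO and 13.8% to 15.6% in WT. The TPM shares of *Tcf12* did not overlap between genotypes, whereas its shares of the summed CPM overlapped, at 48.3% to 53.8% in KO and 52.7% to 59.6% in WT. The coding sequences of *Tcf3*, *Tcf4* and *Tcf12* shared runs of at most 23 identical bases (GENCODE vM21), against reads of 150 bases.

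The Id genes among the members, *Id1*, *Id2* and *Id3*, had higher means in KO. Of these, *Id1* alone passed the test in all 6 libraries together. *Id4*, an Id gene outside the members, was called lower in KO and is described with the other helix-loop-helix factors below. *Id1* (ENSMUSG00000042745) lies on chromosome 2 from 152736251 to 152737410. It had 14.2, 17.0 and 19.8 CPM in KO and 7.40, 8.81 and 5.47 in WT. Every KO library was above every WT library, with the lowest KO library at 14.2 CPM and the highest WT library at 8.81. The log2 fold change was 1.23 (SE 0.22, 2.35-fold, adjusted p = 0.00957, edgeR). The exact two-sided permutation test gave p = 0.1, which is the smallest that 3 against 3 allow. In TPM the difference of log2(TPM + 1) was 1.09 (adjusted p = 0.0149, limma); 7 members had enough TPM to be tested and 1 was called, against 20.5% of all genes. Without WT1 the log2 fold change was still 1.24 but the adjusted p was 0.0510 (edgeR), and in TPM (limma) the adjusted p was 0.0713 without WT1, 0.0616 without WT3 and 0.0844 with no filter on low TPM. Over its 11 alternatives in counts the adjusted p lay between 1.75e-05 and 0.0510, and 10 of them kept the call.

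*Id2* (ENSMUSG00000020644) lies on chromosome 12 from 25093801 to 25096092. Its CPM were 7.83, 16.9 and 12.3 in KO and 9.08, 6.00 and 6.55 in WT. KO2 and KO3 were above all WT libraries, and KO1 was below WT1. Its log2 fold change, 0.78 (SE 0.30), had an adjusted p of 0.0987 (edgeR), which fell to 0.0159 without KO1, where the change was 1.01, rose to 0.261 without KO2, where it was 0.49, and lay between 0.0159 and 0.261 over all alternatives in counts and between 0.00731 and 0.314 in TPM (limma). The 482 other genes tested on chromosome 12 had a median log2 fold change of 0.39, and the 22 others between 20 and 30 Mb, where *Id2* lies, had 0.44. The medians of those 22 stood 0.59, 0.51 and 0.32 above the WT mean in KO1 to KO3, and their part in the *Id2* values was not tested. Around *Id1*, between 150 and 160 Mb of chromosome 2, the median of 129 other genes was 0.02.

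*Id3* (ENSMUSG00000007872) lies on chromosome 4 from 136143497 to 136145755. It had 1.85, 15.8 and 8.79 CPM in KO and 4.40, 4.36 and 3.48 in WT. KO1 was the lowest of all 6 libraries, while KO2 and KO3 were above every WT library. Its log2 fold change, 1.12 (SE 0.62), had an adjusted p of 0.221 (edgeR). Without KO1 it was 1.59 with an adjusted p of 0.00483, and the adjusted p lay between 0.00483 and 0.651 over all alternatives in counts and between 0.00153 and 0.846 in TPM (limma). Leaving out KO2 instead gave the lowest value, 0.40.

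**Figure D3:**
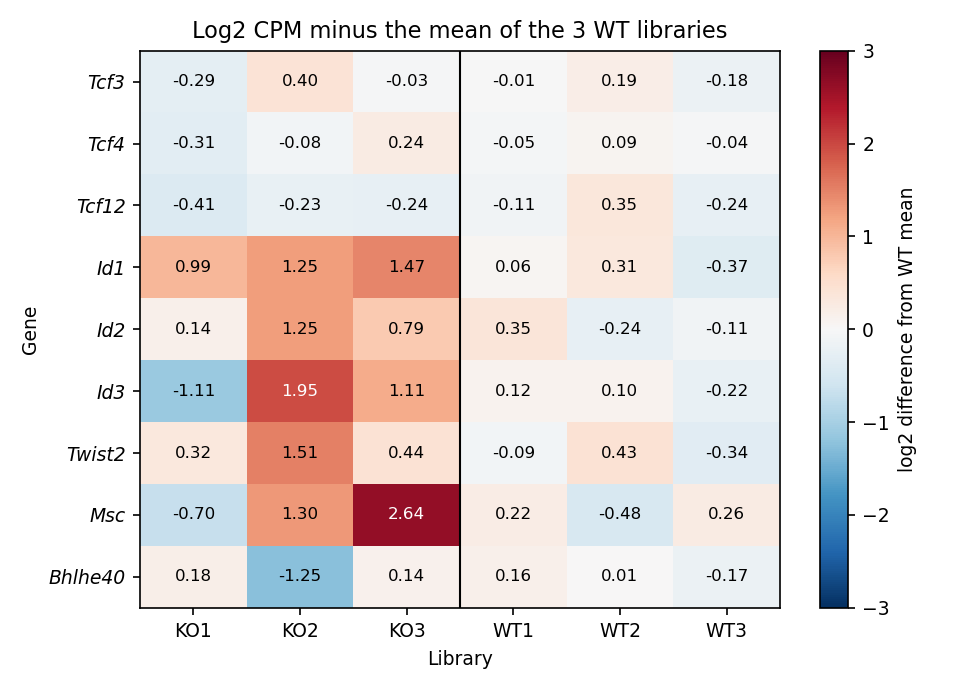
Log2 CPM of 9 members in each library minus the mean of the 3 WT libraries, with red above and blue below 0. *Id1* is red in all KO libraries (0.99, 1.25 and 1.47), whereas *Id3* and *Msc* are blue in KO1 (−1.11 and −0.70) and red in KO2 and KO3.

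The 3 Id genes resemble each other most in the stretch of coding sequence for the helix-loop-helix, which is shown because their reads have to be told apart for these counts. The window of 120 coding bases with the most identity lies in exon 1 of each gene: chr2:152736518-152736637 on the plus strand for *Id1*, chr12:25095783-25095902 on the minus strand for *Id2* and chr4:136144002-136144121 on the plus strand for *Id3* (GENCODE vM21, GRCm38). Capitals mark the 77 bases that all 3 genes share, which is 64.2% of the window.
Id1: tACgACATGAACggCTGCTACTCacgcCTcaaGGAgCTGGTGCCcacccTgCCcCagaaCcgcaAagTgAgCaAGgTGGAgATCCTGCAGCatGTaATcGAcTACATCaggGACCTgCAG
Id2: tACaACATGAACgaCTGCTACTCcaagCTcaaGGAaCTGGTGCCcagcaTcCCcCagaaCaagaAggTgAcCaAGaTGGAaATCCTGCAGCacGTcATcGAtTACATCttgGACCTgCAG
Id3: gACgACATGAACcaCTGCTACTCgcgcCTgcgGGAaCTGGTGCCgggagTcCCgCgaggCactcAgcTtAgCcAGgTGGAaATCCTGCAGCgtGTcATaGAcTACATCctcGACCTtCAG
*Id1* and *Id2* matched at 81.7% of these bases, *Id2* and *Id3* at 71.7%, and *Id1* and *Id3* at 70.8%. The longest run of identical bases between any pair of the full coding sequences was 15, far shorter than the reads of 150 bases.

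The summed Id level per length, set against the summed E protein level, was higher in every KO library than in every WT library. The sum of *Id1*, *Id2* and *Id3* was 13.5, 28.6 and 28.8 TPM in KO and 12.3, 12.0 and 8.83 in WT. The sum of the E protein genes was 64.9, 99.3 and 107.7 TPM in KO and 96.7, 122 and 88.9 in WT. KO1 had an Id sum near that of WT1, and it had the lowest E protein sum of all libraries. The ratio of the sums was 0.207, 0.288 and 0.268 in KO and 0.127, 0.0985 and 0.0993 in WT. The mean ratio was thus 2.35 times higher in KO (0.254 ± 0.0418 against 0.108 ± 0.0164, SD, n = 3) and 2.27 times higher in CPM. This is a ratio of RNA, described without a test, and it contains the called gene *Id1*.

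Per length (TPM), *Id1* held the largest share of the Id sum in every library, but the shares varied in KO. It gave 64.8%, 38.4% and 53.4% of the summed Id TPM in KO and 40.8%, 51.3% and 40.3% in WT. *Id3* gave 7.01%, 31.2% and 20.8% in KO, against 19.8% to 22.4% in WT. In CPM, which is not corrected for length, *Id2* held the largest share in WT1 (43.5% against 35.5% for *Id1*) and in WT3 (42.3% against 35.3%).

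**Figure D4:**
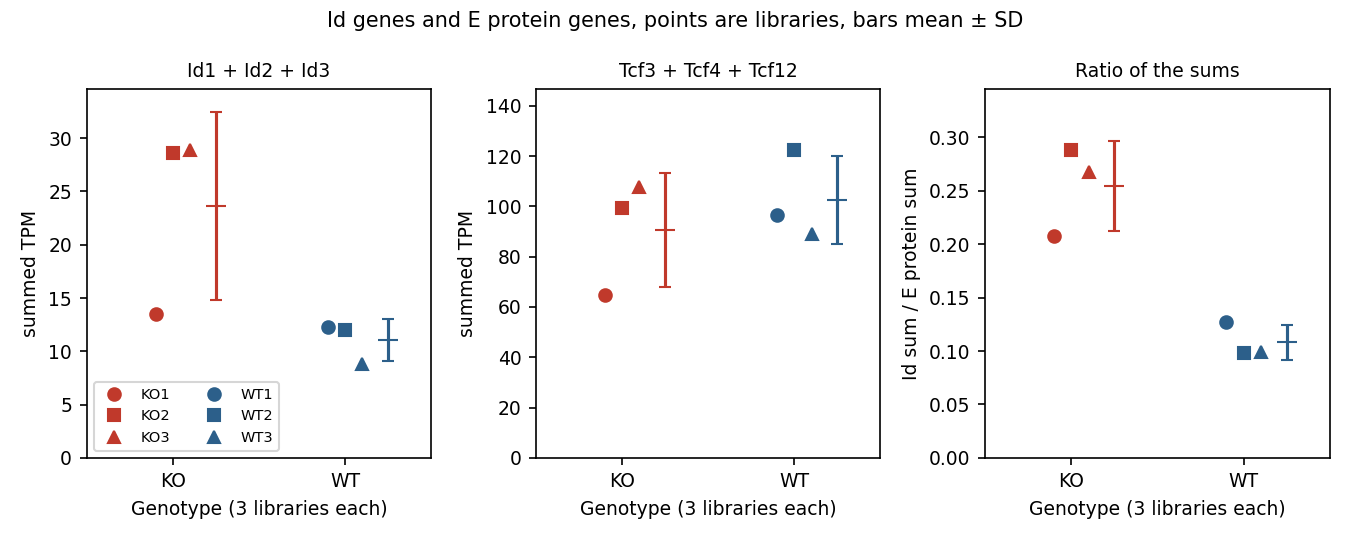
Summed TPM of the Id genes, summed TPM of the E protein genes and the ratio of the sums, for KO (red) and WT (blue) libraries with the mean ± SD of 3 beside the points. The ratio lies between 0.207 and 0.288 in KO and between 0.0985 and 0.127 in WT, while the E protein sums overlap.

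*Twist1* (ENSMUSG00000035799), on chromosome 12 from 33957671 to 33959817, had 0 counts in all 6 libraries. A count of 0 among the 224363870 counts of all libraries allows a level of up to 0.0134 CPM, and 0.0740 to 0.0893 CPM in a single library; these limits cover counting error only. The nearest gene with more than 3 counts in a library, *Hdac9*, a histone deacetylase gene 411686 bases away, had 11, 17 and 9 counts in KO and 436, 248 and 432 in WT. *Twist1* was not detectable at this depth and was not tested.

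*Twist2* (ENSMUSG00000007805, chromosome 1, 91801461 to 91848028) was detected at a low level, with 24, 70 and 30 counts in KO and 17, 24 and 15 in WT. In CPM these were 0.672, 1.60 and 0.732 in KO and 0.492, 0.731 and 0.404 in WT. KO2 was the highest library, and KO1 lay below WT2. The log2 fold change was 0.89 (SE 0.47, adjusted p = 0.197, edgeR) and lay between 0.38 and 1.15 with each library left out in turn. An antisense gene, *Gm29100*, overlaps 46.5% of the exon bases of *Twist2*, and the use of strand in the counting is not given in the sources used here, so reads of the pair may not be separated.

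*Msc* (ENSMUSG00000025930, chromosome 1, 14753346 to 14755992), the gene of musculin, had 10, 56 and 136 counts in KO and 20, 11 and 22 in WT. Its CPM were 0.280, 1.28 and 3.32 in KO and 0.578, 0.335 and 0.593 in WT. KO3 was the highest library and KO1 the lowest. Its change of 1.69 on the log2 scale (SE 0.77) was the largest of the members, but the adjusted p was 0.146 (edgeR). It was 2.17 with an adjusted p of 0.0134 without KO1, and 0.65 without KO3, and the adjusted p lay between 0.0101 and 0.536 over all alternatives in counts. In TPM it was tested only with no filter, with an adjusted p of 0.580 (limma). *Gm9947*, an antisense gene with 2, 14 and 33 counts in KO and 4, 0 and 0 in WT, overlaps 21.2% of the exon bases of *Msc*.

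*Bhlhe40* (ENSMUSG00000030103, chromosome 6, 108660629 to 108666925), the gene of DEC1, was the second member in mean TPM after *Tcf12*. It had 173, 64.4 and 169 CPM in KO and 171, 155 and 136 in WT. KO2 was below all other libraries, whereas KO1 was just above the WT range and KO3 within it. The log2 fold change was −0.19 (SE 0.34, adjusted p = 0.715, edgeR), and 0.15 without KO2.

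The SD of log2 CPM was larger in KO than in WT in 7 of the 9 members, a share near the 68.9% of all genes tested for which this held. For *Id3* the SD was 1.58 in KO and 0.19 in WT, for *Msc* 1.68 and 0.41, and for *Bhlhe40* 0.81 and 0.16. *Id1* and *Tcf12* were the exceptions, with an SD of 0.24 in KO and 0.34 in WT for *Id1* and of 0.10 and 0.31 for *Tcf12*.

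When KO1 was left out, 4 members were called higher, *Id1*, *Id2*, *Id3* and *Msc*, against 15.5% of all genes called higher at that setting. The same 4 were called when no filter on low counts was applied, against 7.67% of the 30252 genes then tested. When WT1 was left out, 0 members were called (edgeR), against 6.01% of all genes. The number of genes called over the whole table was 4712 without KO1, 4538 without the filter and 933 without WT1.

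The 2 genes whose pattern over the 6 libraries was most like that of *Id1* were *Gnao1*, which encodes a G protein alpha subunit, and *Crim1*, which encodes a transmembrane protein that binds BMPs. They were chosen by the smallest root-mean-square difference of centred log2 CPM among 8865 genes of sufficient level. That difference was 0.093 for *Gnao1* and 0.12 for *Crim1*, against a median of 0.71. *Gnao1* had 36.6, 50.2 and 48.9 CPM in KO and 18.9, 21.4 and 14.5 in WT, and *Crim1* 14.2, 20.2 and 18.5 in KO and 8.30, 10.2 and 6.12 in WT.

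The sequence before the start of *Id2* is shown because it holds a motif of MyoD and E protein dimers and another of BMP-regulated Smads. RefSeq promoters (GRCm38.p6) were matched by symbol for 6 members, with 8 entries, namely *Tcf3*, *Tcf12*, *Id2*, *Id3*, *Twist1* and *Twist2*. Entries for *Id1*, *Msc*, *Bhlhe40* and *Tcf4* were not used here. In the 250 bases before each start, 3 motifs were searched, each of which reads the same on both strands: CACGTG, the E-box of *Bhlhe40*-type repressors, CAGCTG, an E-box of MyoD and E protein dimers, and GGCGCC, a GC-rich element bound by BMP-regulated Smads. CAGCTG was found in 2 entries, of *Tcf12* and *Id2*, GGCGCC in 1, of *Id2*, and CACGTG in 0. Over 32851 promoters, 13.0% held CAGCTG, 9.59% GGCGCC and 6.02% CACGTG. The window of *Id2* is chr12:25096093-25096342 on the minus strand, and the capitals mark GGCGCC, from 231 to 226 bases before the start, and CAGCTG, from 196 to 191 bases before it. A longer GENCODE vM21 model of *Id2*, which reaches to 25097140, spans this window. A match is a description of letters and not a measured site.
Id2: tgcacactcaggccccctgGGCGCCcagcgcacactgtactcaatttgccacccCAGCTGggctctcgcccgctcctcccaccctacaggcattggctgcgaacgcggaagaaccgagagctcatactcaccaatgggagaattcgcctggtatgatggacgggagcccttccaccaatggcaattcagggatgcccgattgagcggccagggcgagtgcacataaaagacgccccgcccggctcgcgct

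Genes around these members were read from 4 lists, which were chosen with earlier results of these data known. Their counts and medians are therefore descriptions and not tests. The lists held 72 genes in all, of which 56 were tested and 20 called (15 higher and 5 lower in KO, edgeR), where 22.7% of all genes tested were called. Single libraries weighed on this number, which was 5 without WT1, 8 without WT3, 13 without WT2 and 12 without KO3. At those settings 6.01%, 8.43%, 13.6% and 13.9% of all genes tested were called, so the number over the whole table fell as well.

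Among other helix-loop-helix factors, MyoD itself was higher in KO and its relatives *Myf5* and *Myf6* were lower, while the fourth gene of that family, *Myog*, did not pass the test (0.06 on the log2 scale, adjusted p = 0.863, edgeR). Of 26 genes, 12 were tested, 5 were called higher (*Atoh8*, *Scx*, *Myod1*, *Hes1* and *Bhlhe41*) and 3 lower (*Id4*, *Myf6* and *Myf5*), with a median log2 fold change of 0.46 against 0.03 over all genes tested. The shares over all genes tested were 12.1% called higher and 10.6% called lower. *Myod1* had 171, 270 and 194 CPM in KO and 98.5, 126 and 96.0 in WT, and edgeR gave 0.99 on the log2 scale (SE 0.20, adjusted p = 0.0141). The largest rises were those of *Atoh8*, an atonal-type factor (2.23), and *Scx*, the tendon factor scleraxis (1.28). *Id4*, the fourth Id gene, had 2 counts in KO and 122 in WT over 3 libraries each, a WT to KO ratio of 70.3 (95% exact interval 19.04 to 587, counting error only). *Id4* passed the filter on low counts through its WT libraries. *Myf6*, the gene of MRF4, had 15, 3 and 2 counts in KO and 61, 44 and 118 in WT, a fitted log2 fold change of −3.58, and it too passed the filter through its WT libraries. *Bhlhe41*, the paralog of *Bhlhe40*, was higher by 0.61, and 9 genes of this list had no more than 3 counts in every library. The 8 calls of this list became 5 without KO3, 2 without WT1, 5 without WT2 and 3 without WT3.

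Of 12 inhibitors of MyoD without a helix-loop-helix, all were tested, 4 were called higher (*Mdfi*, *Ccnd1*, *Hdac1* and *Snai1*) and 1 lower (*Zeb1*), with a median of 0.17. Over all genes tested, 12.1% were called higher and 10.6% lower, with a median of 0.03. *Mdfi*, whose product I-mfa binds MyoD family proteins, had 7.53, 8.89 and 6.64 CPM in KO and 1.76, 1.16 and 1.54 in WT. All KO libraries lay above all WT libraries, and the log2 fold change was 2.37 (adjusted p = 0.00205, edgeR). *Ccnd1*, the cyclin D1 gene, was higher by 1.21. *Zeb1*, an E-box-binding repressor, was lower, at −0.74. The 5 calls of this list became 1 without WT1 and 3 without WT3.

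Of 20 genes of BMP signalling, which acts upstream of Id genes, 18 were tested, 5 were called higher (*Bmp7*, *Bmp4*, *Acvrl1*, *Chrd* and *Bmpr1a*) and 0 lower, with a median of 0.33. Over all genes tested, 12.1% were called higher and 10.6% lower, with a median of 0.03. The ligand gene *Bmp4* had 292, 917 and 625 counts in KO and 104, 145 and 80 in WT, which edgeR put at 2.22 on the log2 scale (SE 0.40, adjusted p = 0.00914). *Bmp7*, another ligand gene, had 94, 67 and 26 counts in KO and 0, 0 and 1 in WT. The ratio of the summed counts, scaled to library size, was 162 (95% exact interval 28.8 to 6444, counting error only), and it passed the filter through its KO libraries. The called genes comprised ligands, the receptor genes *Acvrl1* and *Bmpr1a*, and *Chrd*, the gene of the BMP antagonist chordin. *Acvrl1* had 27, 30 and 50 counts in KO and 12, 6 and 4 in WT, and it passed the filter through its KO libraries. The intracellular *Smad1*, *Smad5*, *Smad9*, *Smad4*, *Smad6* and *Smad7* did not pass the test. Neither did *Grem1* (1.57 on the log2 scale) and *Nog* (−0.92), which went in opposite directions. The 5 calls of this list became 2 without KO3, 1 without WT1, 2 without WT2 and 2 without WT3.

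Of 15 E-box target genes of MyoD in differentiation, all were tested, 1 was called higher and 1 lower, with a median of −0.34. Over all genes tested, 12.1% were called higher and 10.6% lower, with a median of 0.03. *Cdh15*, the M-cadherin gene, was higher by 0.70, and *Mef2c*, a gene of a MADS-box partner of MyoD, was lower, with 17.1, 2.34 and 1.17 CPM in KO and 80.8, 162 and 189 in WT. KO1 stood apart for this list as for *Id3*: the list's median stood at 0.27, −0.58 and −0.99 in KO relative to the WT mean. Without KO1, 9 of the 15 were called, 8 of them as lower, and 7 were called by DESeq2 and 8 with no filter on low counts. Of all genes, 30.6%, 23.9% and 15% were called at these settings. In the other direction, 1 was called without KO3, 1 without WT1 and 0 without WT3, and *Cdh15* was among the calls lost in each case. With the replicate block 0 were called higher and 2 lower.

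**Figure D5:**
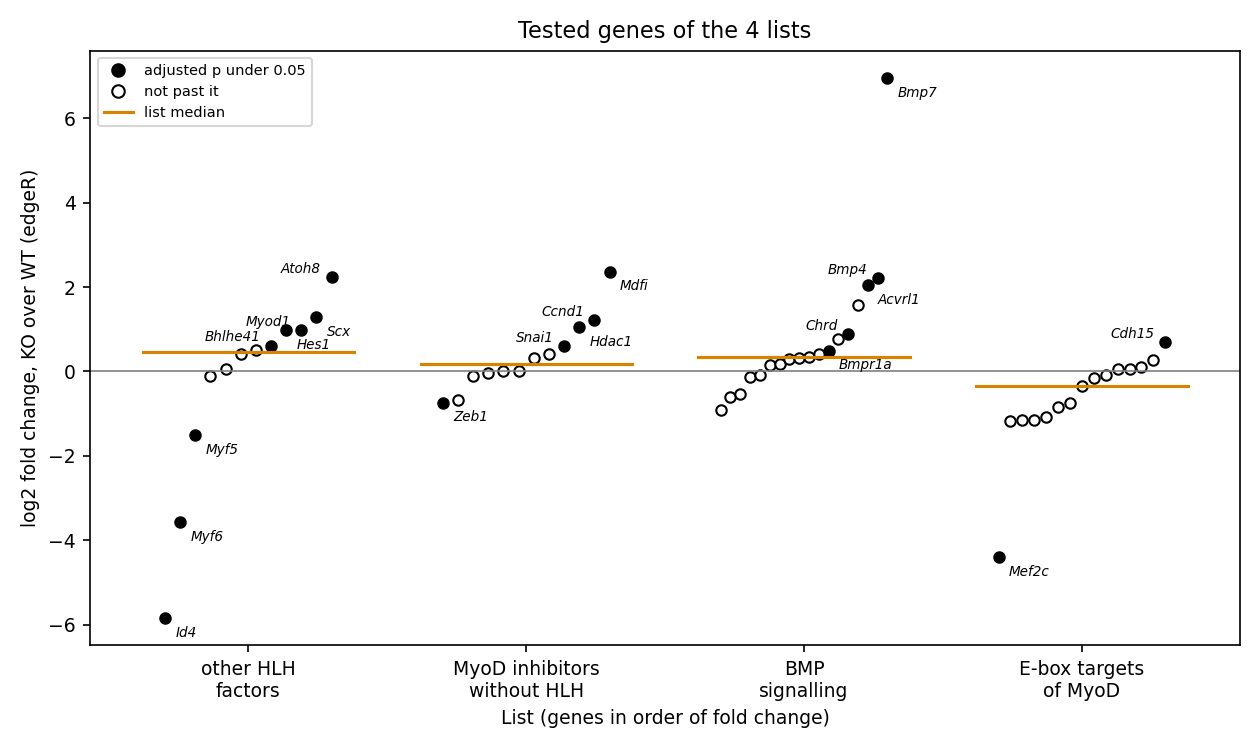
Log2 fold change of KO over WT (y axis, edgeR) of each tested gene of 4 lists, in order of size within a list. Filled circles have an adjusted p under 0.05, and orange lines are the list medians (0.46, 0.17, 0.33 and −0.34); the fitted values of *Id4* and *Bmp7* rest on near-zero counts in 1 genotype.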

How the data were processed

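RNA depleted of ribosomal RNA was sequenced in paired reads of 150 bases. Alignment was by STAR, and the authors deposited raw counts per gene for all 6 libraries. StringTie TPM, deposited by library, were the second measure and were summed where a gene identifier recurred. The submitters' processing notes name featureCounts and the build mm9, and the methods name GRCm39. Of 45137 deposited gene positions, 83.15% were identical to GENCODE vM21 on GRCm38, so positions are given on GRCm38.

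Counts were scaled by TMM (trimmed mean of M-values), filtered with filterByExpr and tested with edgeR 4.0.16 (glmQLFit and glmQLFTest, two-sided, R 4.3.3) on genotype alone, with Benjamini-Hochberg adjustment over all genes tested and a threshold of 0.05. The standard error (SE) is the log2 fold change divided by the root of F. TPM were tested with limma 3.58.1 on log2(TPM + 1) over 11691 genes with at least 1 TPM in at least 3 libraries, which understates the change of low genes, and 6 genes without a TPM row in a library were dropped. DESeq2 1.42.0, other scalings, no filter, a replicate block and each library left out were alternatives. The steps were tested on simulated counts with the same spread beyond counting error for every gene and in both genotypes. That simulation did not cover the larger spread between KO libraries seen here. Exact permutation tests of 3 against 3 cannot go below p = 0.1.

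The named genes were the 10 members, the targeted gene and the called genes of each list. Values are given for the 2 largest rises and falls of a list and for some other called genes. The 2 genes most like a called member were named where their mean log2 CPM was no lower than 3. Cell type markers, antisense genes that overlap members and the nearest counted gene to *Twist1* were named as well. *Myog*, the *Smad* genes, *Grem1* and *Nog* were named although they were not called. The members and lists were chosen with earlier results of these data known. No library repeated another. Splicing was not analysed here.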

Additional observations from a re-analysis of the deposited data

How the results depend on the processing

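*Twist1* had no count and could not be tested at this depth. Of 162 values of single members under alternatives, 138 kept their direction and their side of the threshold, 8 passed it where they had not, 4 no longer passed it and 12 changed sign. Leaving out libraries singly, the genes called over the whole table were 933 to 4712, the members called 0 to 4, the list genes called 5 to 28, the members called in TPM 0 to 3, and the members whose KO and WT libraries did not overlap 2 to 5. At those settings 48% to 58.7% of all genes tested did not overlap, and 4.21% to 27.6% were called in TPM (limma). With no filter on low counts 4 members were called in place of 1, with no filter on TPM 0 were called in place of 1 (limma), and with RLE scaling 2 members did not overlap (*Id1* and *Tcf12*) in place of 1, against 44.4% of all genes. The changes of sign were in *Tcf3*, *Tcf4* and *Bhlhe40*. With single libraries left out, *Tcf3* lay between −0.16 (without KO2) and 0.19, and in TPM between −0.091 (without KO2) and 0.26. *Tcf4* went to 0.0036 with upper-quartile scaling, lay between −0.19 and 0.081 (without KO1) with libraries left out, and in TPM between −0.18 (without KO3) and 0.29. *Bhlhe40* lay between −0.41 and 0.15 (without KO2), and in TPM between −0.61 and 0.16. The cause was not tested. With any library left out, the mean ratio of summed Id to E protein TPM stayed 2.19 to 2.57 times as high in KO as in WT.

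Replicate numbers are shared by the labels of KO and WT, but same-numbered libraries deviated from their group means with correlations of 0.137, −0.116 and 0.00413 across genes, so the numbers do not pair them. With the replicate block 2520 genes were called in place of 3361, 1 member (*Id1*) in counts and 1 in TPM, and 16 list genes in place of 20, with 3 in place of 5 for BMP signalling.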
